A study of Mus musculus with 8 samples.

Results

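Cxadr, Jam2, Igsf5, Cldn8, Cldn14, Ncam2 and Dscam are cell junction and cell adhesion genes that lie in the stretch of mouse chromosome 16 carried in 3 copies by Dp16 mice. They are 7 of the 386 genes annotated in that stretch and 7 of the 54838 genes counted in the series. They were taken by name from the gene symbols of the GRCm38 build, and the set was selected on function together with their fold changes between genotypes in these same libraries, since some of them do not follow copy number. For that reason their differences between Dp16 and wild type are given as levels, spreads and intervals, with no p-value. The calls that fits across all genes made for them are counted once, as a description.

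RNA was sequenced from the submandibular gland, a major salivary gland, of male mice in 8 libraries. The 4 WT libraries came from wild-type C57BL/6J mice. The 4 Dp16 libraries came from mice of the strain B6.129S7-Dp(16Lipi-Zbtb21)1Yey/J, a Down syndrome model in which the duplicated segment runs from Lipi to Zbtb21 (chr16:75540514-97962622 in GRCm38, 22.4 Mb) and is present in every cell, not in a single cell type. The age of the mice is not given in the sources used here, and the labels do not say that each library is a separate mouse, so that the errors below measure the spread between libraries, which may be technical. Per the study's design text, connective and fat tissue around the glands was removed before RNA extraction. Libraries held 90790542 to 115729892 reads in genes. Log2 levels correlated at 0.966 to 0.983 within genotypes and 0.959 to 0.981 between them. Reads overlapping no annotated exon took 14.98% ± 0.965 of the reads of WT libraries and 19.8% ± 1.16 of those of Dp16 libraries (SD, n = 4, two-sided exact permutation p = 0.0286, the smallest that 4 against 4 can give). The same permutation test gave p = 0.171 for ambiguous reads and p = 0.114 for reads not uniquely aligned, all without adjustment. The part of the shift in reads overlapping no exon in the values below was not tested. In all, 127 genes of the segment passed the filter on low counts, and the log2 fold change of Dp16 over WT was above 0 for 121 of them (median 0.66). The 88 protein-coding genes among these had a median of 0.59 (quartiles 0.36 and 0.79), and the log2 of a 1.5-fold rise, the ratio of 3 copies to 2, is 0.58. Segment genes of low level could pass the filter through their Dp16 libraries alone, which favours values above 0. The count above 0 and the medians may carry that choice.

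Epithelial cells of a salivary gland are sealed to one another by tight junctions, which separate saliva from tissue fluid and set which ions may pass between cells. Claudins form the strands of the tight junction, and immunoglobulin-like proteins such as the coxsackievirus and adenovirus receptor (Cxadr) and the junctional adhesion molecules sit beside them and bind the same molecules on the next cell. Many of these proteins end in a short tail that binds PDZ domains of scaffold proteins under the membrane, such as ZO-1 (Tjp1) and the MAGI proteins. Ncam2 and Dscam belong to the same immunoglobulin superfamily but are known mainly from neurons, where they guide axons and dendrites.

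The last 30 coding bases and the stop codon of each gene are shown because that is where the PDZ-binding tail is encoded. Sequences were built from the GRCm38 genome and the longest coding sequence of each gene in GENCODE M21, are written 5′ to 3′ on the coding strand, and have the last 3 codons before the stop in capitals.
Cldn8, chr16:88562358-88562390, minus strand: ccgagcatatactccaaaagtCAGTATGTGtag
Cldn14, chr16:93919237-93919269, minus strand: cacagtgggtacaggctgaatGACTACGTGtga
Cxadr, chr16:78336420-78336452, plus strand: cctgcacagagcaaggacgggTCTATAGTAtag
Jam2, chr16:84822787-84822819, plus strand: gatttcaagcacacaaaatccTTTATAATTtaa
Igsf5, chr16:96421804-96421836, plus strand: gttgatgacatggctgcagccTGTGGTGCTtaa
Ncam2, chr16:81623421-81623453, plus strand: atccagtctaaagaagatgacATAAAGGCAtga
Dscam, chr16:96593059-96593091, minus strand: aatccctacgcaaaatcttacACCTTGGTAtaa
The last codon before the stop begins with GT or AT, the codons of aliphatic residues that PDZ domains commonly bind, in 5 of the 7 genes, namely Cldn8, Cldn14, Cxadr, Jam2 and Dscam. In Igsf5 and Ncam2 it begins with GC. Annotated transcripts of Cxadr, Jam2, Igsf5 and Ncam2 have more than the end shown. The coding sequences range from 678 bases in Cldn8, which has a single exon, to 6042 bases in Dscam, whose gene spans 580 kb.

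The 7 genes differed widely in level. Cldn8 was among the most abundant claudin genes of the gland, Igsf5, Jam2 and Cxadr were moderately expressed, Ncam2 and Dscam were present as traces, and Cldn14 had 0 reads. The Dp16 libraries lay above all WT libraries for Cldn8 (1.60-fold) and Igsf5 (1.41-fold). The same held for 63.8% of the segment genes tested and 7.11% of all genes tested. For Cxadr (1.02-fold) and Jam2 (0.933-fold) the genotypes overlapped, and the interval of the fold change ended below 1.5. It ended there in 15% of the segment genes tested. The same contrast chose the members, so these values are a description.

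**Figure D1:**
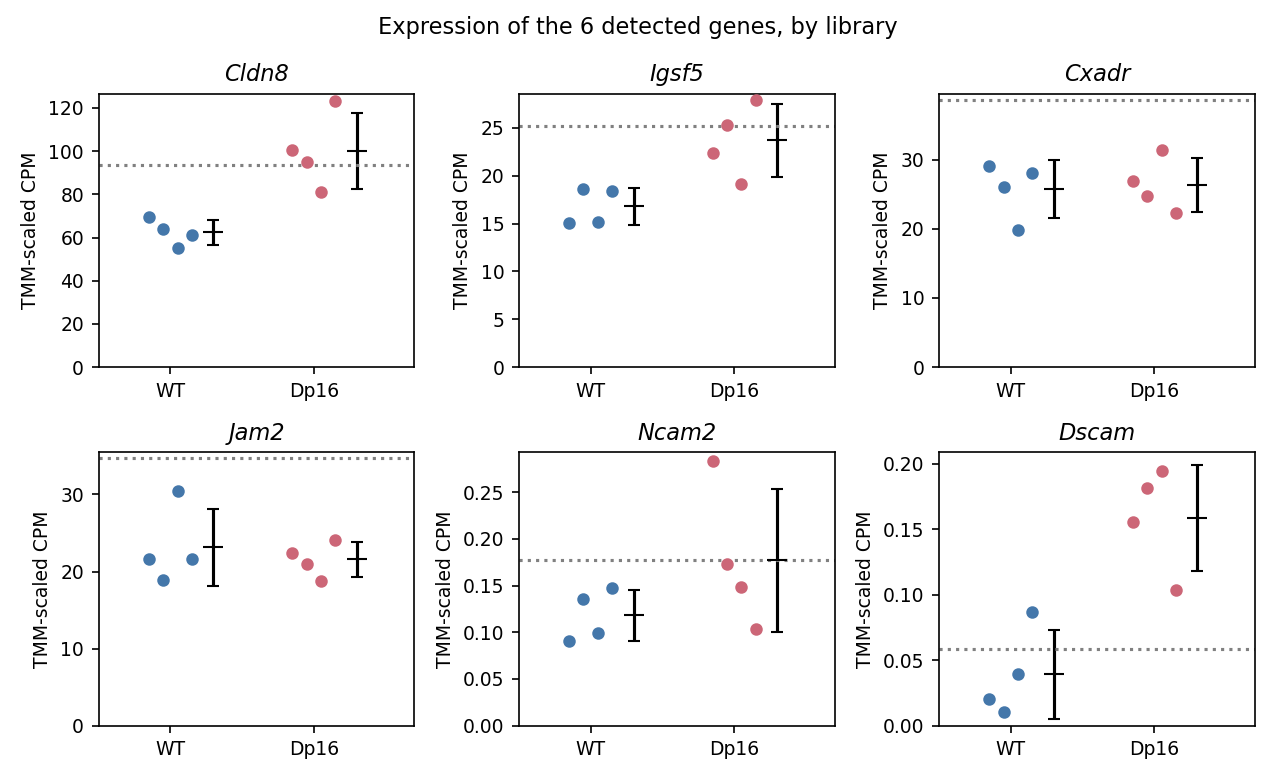
Level of each of the 6 detected genes in CPM (read counts scaled to a common library size with edgeR's TMM factors, vertical axes starting at 0) for the 4 WT and 4 Dp16 libraries, replicates 1 to 4 from left to right, with the mean and SD beside the points and a dotted line at 1.5 times the WT mean. Cldn8 and Igsf5 are higher in all Dp16 libraries, Cxadr and Jam2 overlap, and Ncam2 and Dscam stay below 0.30 CPM.

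Cldn8 encodes a claudin that tightens the barrier to cations and helps to place Cldn4 in the junction. It lies at chr16:88560828-88563183 on the minus strand (ENSMUSG00000050520). Its level in WT replicates 1 to 4 was 69.4, 63.8, 55.0 and 61.1 CPM, and in Dp16 replicates 1 to 4 it was 100.3, 95.1, 81.3 and 123.2 CPM. All Dp16 libraries were thus above all WT libraries, and Dp16 replicate 4 was the highest. The means were 62.3 ± 5.97 and 99.98 ± 17.4 CPM (SD, n = 4 each), with a log2 fold change of 0.68 (SE 0.128, 95% interval 0.39 to 0.97). That interval held the 0.58 of a 1.5-fold rise and did not hold 0. With 68250 reads over the 8 libraries, the error came from the spread between libraries and not from counting.

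Claudin genes can be compared with each other only per length, in CPM per kilobase of annotated exon. Of 23 claudin genes annotated, 19 had at least 1 read and 10 passed the filter. In WT, Cldn10 (40.2 ± 5.93), Cldn3 (31.2 ± 3.80) and Cldn4 (30.1 ± 3.09) came before Cldn8 (26.5 ± 2.53), and the ranges of Cldn8, Cldn4 and Cldn3 overlapped. Cldn7 followed at 15.8 ± 3.37 CPM per kilobase, with all its WT libraries below those of Cldn8. In Dp16, Cldn8 came first with 42.4 ± 7.41 CPM per kilobase, ahead of Cldn10 (36.6 ± 6.11), Cldn4 (31.7 ± 5.63) and Cldn3 (28.5 ± 2.58), and its range overlapped those of Cldn10 and Cldn4. Cldn8 made up 17.3% ± 2.22 of the summed claudin level in WT and 26.6% ± 5.02 in Dp16 (SD, n = 4). The sum itself spanned 149.96 to 163.3 CPM per kilobase in WT and 155.8 to 165.1 in Dp16. These values come from the comparison that chose Cldn8 and are a description.

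**Figure D2:**
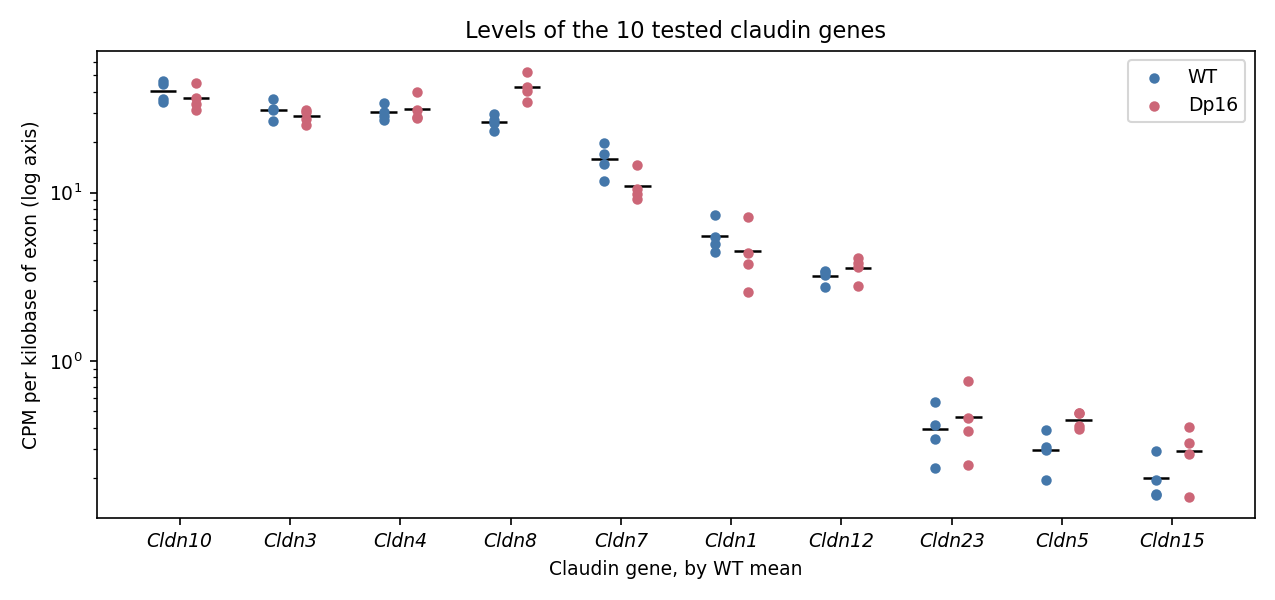
Level of the 10 claudin genes that passed the filter, in CPM per kilobase of exon on a log axis, ordered by WT mean, with 1 point per library and bars at the group means. Cldn8 is the fourth gene by WT mean (26.5) and has the highest Dp16 mean (42.4).

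Cldn14, a claudin known from the inner ear and the kidney (ENSMUSG00000047109, chr16:93919031-94008837, minus strand), had 0 reads in each of the 8 libraries. A count of 0 allows up to 3 reads, which is 0.0259 to 0.0330 CPM in a single library and 0.00356 CPM over the 8 libraries together, for counting error only. The fold change of Cldn14 therefore could not be measured, and the gene did not enter the test. Cldn17, next to Cldn8 and also triplicated, had 10 reads in all and did not enter it either.

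Igsf5, also called JAM4, is a junctional adhesion molecule of epithelia that binds the scaffold MAGI-1. It lies at chr16:96361668-96422121 on the plus strand (ENSMUSG00000000159). WT replicates 1 to 4 had 15.1, 18.6, 15.2 and 18.4 CPM, and Dp16 replicates 1 to 4 had 22.4, 25.3, 19.1 and 27.9 CPM. The genotypes did not overlap, although Dp16 replicate 3 was only just above WT replicate 2. Means were 16.8 ± 1.93 and 23.7 ± 3.80 CPM (SD, n = 4), a log2 fold change of 0.50 (SE 0.129, 95% interval 0.20 to 0.79), and the interval held 0.58. A second annotated gene with the symbol Igsf5 (ENSMUSG00000117081) reads through into Pcp4 and had 0 reads in every library. All 1031 of its exonic bases are shared on the same strand with the main Igsf5 gene or Pcp4. Its 0 reads therefore cannot show that its RNA is absent. The second gene shares 788 of the 2523 exonic bases of Igsf5 (31.2%) on the same strand. Reads there may thus have been set aside as ambiguous in all libraries. Counted over its own 1735 bases only, the level of Igsf5 per length would be 9.68 ± 1.11 CPM per kilobase in WT and 13.7 ± 2.19 in Dp16, in place of 6.66 and 9.39.

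Cxadr, also immunoglobulin-like, is a homophilic adhesion protein of the tight junction and the entry receptor of coxsackie B viruses and adenoviruses. It lies at chr16:78301489-78359774 on the plus strand (ENSMUSG00000022865), near the Lipi end of the segment. Levels were 29.1, 25.996, 19.8 and 28.0 CPM in WT replicates 1 to 4 and 26.9, 24.7, 31.3 and 22.2 CPM in Dp16 replicates 1 to 4. The ranges lay almost on top of each other. Means of 25.7 ± 4.13 and 26.3 ± 3.86 CPM (SD, n = 4) gave a log2 fold change of 0.03 (SE 0.140, 95% interval -0.28 to 0.35), so the upper end of the interval was under 0.58. Cxadr shares 695 of its 7400 exonic bases (9.39%) with Btg3, which runs on the opposite strand. Whether the counting used the strand is not given in the sources used here, so reads of the 2 genes in that overlap may not be told apart. Btg3 itself had 1.56 ± 0.350 CPM in WT and 0.821 ± 0.346 in Dp16.

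Jam2, or JAM-B, is a junctional adhesion molecule known best from endothelial cells, where it binds Jam3 and the integrin made of Itga4 and Itgb1. It lies at chr16:84774123-84825928 on the plus strand (ENSMUSG00000053062). Levels were 21.6, 18.9, 30.4 and 21.6 CPM in WT replicates 1 to 4 and 22.4, 21.01, 18.8 and 24.2 CPM in Dp16 replicates 1 to 4. WT replicate 3 was the highest of the 8 libraries, and the other 7 lay between 18.8 and 24.2 CPM. Means of 23.1 ± 5.02 and 21.6 ± 2.28 CPM (SD, n = 4) gave a log2 fold change of -0.10 (SE 0.147, 95% interval -0.43 to 0.23), below 0.58 throughout. Without WT replicate 3 the log2 fold change of Jam2 turned to 0.05 and that of Cxadr, which had its lowest level in that library, to -0.09. That library also stood apart in other gland genes, picked here after their values were seen. Dcpp2, Dcpp3 and Dcpp1, secretory genes with near-identical copies whose reads may be split among them, had 70.8, 39.1 and 22.3 CPM there and at most 0.967, 0.765 and 0.666 CPM in the other WT libraries. Bpifa2 had 4.23 CPM there against 41.7 to 229.2 CPM in the other WT libraries. The Dp16 libraries also differed among themselves in these genes. Dcpp2, Dcpp3 and Dcpp1 were highest in Dp16 replicate 4 (4.75, 3.57 and 2.55 CPM), and Bpifa2 was lowest in Dp16 replicate 2 (15.3 CPM). The part of these differences between libraries in the values of Jam2 and Cxadr was not tested. In whole tissue, fewer cells of a type and less RNA per cell cannot be told apart.

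Endothelial markers were measured beside Jam2. Of 14 such genes tested, among them Pecam1, Cdh5 and Kdr, 13 had a log2 fold change above 0 (median 0.38), and their summed level was 93.7 to 107.1 CPM in WT and 113.2 to 130.9 CPM in Dp16, with no overlap. Erg, 1 of the 14, lies in the segment and is itself triplicated. Without Erg, 12 of 13 were above 0 (median 0.37), and the sums were 92.9 to 106.2 CPM in WT and 111.9 to 129.7 CPM in Dp16. None of the 14 was at 0 in all libraries. The summed level of 15 acinar markers was 266203 to 375158 CPM in WT and 234839 to 319969 in Dp16 (1 of 14 tested positive, median -0.40). For 12 granular duct markers it was 103467 to 173386 and 60962 to 125568 CPM (2 of 11 positive, median -0.44). Other duct markers summed to 869 to 1126 and 858 to 1220 CPM (9 of 15 positive, median 0.01), and basal and myoepithelial markers to 528 to 635 and 523 to 634 CPM (4 of 9 positive, median -0.02). Fibroblast markers summed to 619 to 893 and 513 to 819 CPM (3 of 10 positive, median -0.25), lymphoid markers to 32.04 to 40.9 and 50.8 to 130.3 CPM (14 of 14 positive, median 1.84), and skeletal muscle markers to 1.52 to 2.06 and 1.17 to 1.49 CPM (3 of 5 positive, median 0.11). Over all 19358 genes tested the median was 0.01. The part of these marker shifts in the levels of Cldn8, Igsf5, Cxadr and Jam2 was not tested. Of the acinar markers, Mucl2 had 234361 to 333956 CPM in WT and 210317 to 285176 CPM in Dp16. It thus made up most of the acinar sum. The granular duct marker Egf had at least 15704 CPM in every library. Cst10, also of the granular duct, was at 0 in 7 of the 8 libraries and the acinar Smgc in 1. Mucl2, Egf, Cst10 and Smgc were named after their values were seen.

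Ncam2 and Dscam are read with caution, since they were near the limit of detection. Ncam2 (ENSMUSG00000022762, chr16:81200697-81626828, plus strand), an adhesion molecule of olfactory axons, had 9, 13, 10 and 17 reads in WT replicates 1 to 4 and 31, 20, 16 and 10 in Dp16 replicates 1 to 4. The genotypes overlapped, with Dp16 replicate 1 the highest and Dp16 replicate 4 within the WT range. Its means were 0.118 ± 0.0275 and 0.177 ± 0.0765 CPM (SD, n = 4), with a log2 fold change of 0.58 (SE 0.384, 95% interval -0.28 to 1.44) that held both 0 and the value for 1.5-fold. Without Dp16 replicate 1 this log2 fold change was 0.26. Summed over libraries, 49 reads in WT and 77 in Dp16 gave a ratio per gene read of 1.69 (exact 95% interval 1.16 to 2.47, for counting error only).

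Dscam (ENSMUSG00000050272, chr16:96590840-97170752, minus strand), which keeps branches of the same neuron apart, had 2, 1, 4 and 10 reads in WT replicates 1 to 4 and 17, 21, 21 and 10 in Dp16 replicates 1 to 4. WT replicate 4 and Dp16 replicate 4 thus had equal reads, and scaled to depth they stood at 0.0868 and 0.103 CPM. Means were 0.0392 ± 0.0339 and 0.159 ± 0.0405 CPM (SD, n = 4), a log2 fold change of 1.95 (SE 0.550, 95% interval 0.71 to 3.19). The gene passed the filter on low counts only through its Dp16 libraries, so it had to differ, and the size of the difference carries that choice. Summed reads of 17 and 69 gave a ratio per gene read of 4.36 (exact 95% interval 2.54 to 7.91, counting error only). Markers of Schwann cells and nerve, in which such genes are known to be active, had a summed level of 120 to 165 CPM in WT and 136 to 169 in Dp16 (9 of 12 tested positive, median 0.26), and their part in the traces of Ncam2 and Dscam was not tested.

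Promoter sequences are shown for Ncam2, which was detected as a trace, and Cldn14, which was not detected, since both are genes whose copy number could hardly show in this tissue. The RefSeq promoter table of build GRCm38.p6 held 3 of the 7 genes (these 2 and Dscam), and the 250 bases before the start are printed 5′ to 3′ on the coding strand. Capitals mark matches, on either strand, to the GC box (GGGCGG or CCGCCC, in 32.7% of the 32841 promoters of the table) or the CCAAT box (CCAAT or ATTGG, in 33.9%). None of the 3 genes held TATAAA or TTTATA, which 12.4% of promoters hold, and no motif overlapped another.
Ncam2, chr16:81200447-81200696, plus strand: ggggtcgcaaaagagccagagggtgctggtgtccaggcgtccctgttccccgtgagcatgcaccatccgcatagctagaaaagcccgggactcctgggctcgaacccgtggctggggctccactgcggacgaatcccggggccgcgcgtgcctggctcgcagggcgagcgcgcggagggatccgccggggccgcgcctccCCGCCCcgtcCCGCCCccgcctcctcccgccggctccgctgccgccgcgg
Cldn14, chr16:94008838-94009087, minus strand: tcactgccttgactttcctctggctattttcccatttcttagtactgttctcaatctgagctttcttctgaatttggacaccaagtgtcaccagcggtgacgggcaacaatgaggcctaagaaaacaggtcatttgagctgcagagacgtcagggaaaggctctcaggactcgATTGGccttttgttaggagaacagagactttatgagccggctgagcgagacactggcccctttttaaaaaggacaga
The Ncam2 window was 75.2% G and C with 32 CpG dinucleotides and 2 GC boxes, richer in G and C than 96.1% of promoters. The Cldn14 window, at the farthest upstream of its 3 starts in the table, was 47.6% G and C with 6 CpG dinucleotides and 1 CCAAT box, and the Dscam window was 68.0% with 21 CpG dinucleotides and no match. The median promoter had 52.4% and 6 CpG dinucleotides.

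Per length, the order of the members in WT was Cldn8 (26.5), Igsf5 (6.66), Jam2 (3.83 ± 0.831), Cxadr (3.48 ± 0.558), Ncam2 (0.0104), Dscam (0.00446) and Cldn14 (0 reads), in CPM per kilobase of exon. The ranges of Jam2 and Cxadr overlapped, as did those of Ncam2 and Dscam, while the other neighbours in that order did not overlap. In Dp16 the levels were 42.4 for Cldn8, 9.39 for Igsf5, 3.57 for Jam2 and 3.56 for Cxadr, and Dscam (0.0181) and Ncam2 (0.0156) overlapped again. The 2-copy relatives of these genes were F11r (JAM-A), the main junctional adhesion molecule of epithelia, at 20.9 ± 2.01 CPM per kilobase in WT and 20.1 ± 0.980 in Dp16, and Jam3, the partner of Jam2, at 0.577 ± 0.0683 and 0.732 ± 0.251. Ncam1 had 0.273 ± 0.0791 and 0.349 ± 0.0739 CPM per kilobase. F11r was thus above Jam2, Cxadr and Igsf5 in every library of both genotypes, and Ncam1 was above Ncam2 in every library.

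The members also differed from one another in how they varied between libraries of the same genotype. In Dp16, Cldn8, Igsf5 and Jam2 were each highest in replicate 4 and lowest in replicate 3, whereas Cxadr was highest in replicate 3 and lowest in replicate 4. In WT, replicate 3 had the highest Jam2 and the lowest Cxadr and Cldn8. The standard deviation of log2 CPM within genotypes was 0.201 for Cldn8, 0.204 for Igsf5, 0.230 for Cxadr and 0.234 for Jam2. These were above those of 74.0%, 75.01%, 81.5% and 81.5% of genes within 0.5 log2 units of the same level, where the median was 0.131 to 0.139. With 4 libraries a genotype, such orders are a description.

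Against the other genes of the segment, Jam2 was the third lowest and Cxadr the sixth lowest of the 88 protein-coding genes by log2 fold change. Igsf5, Ncam2, Cldn8 and Dscam stood at ranks 39, 44, 54 and 87 from the lowest. Jam2 and Cxadr lay in the tail that chose them, with Btg3 (-0.92), Gm5678 (-0.31), Prdm15 (-0.08), Zbtb21 (0.02) and Adamts1 (0.06) around them. Of the 6 members tested, Cldn8, Igsf5 and Dscam had Dp16 libraries all above the WT libraries, as did 63.8% of the 127 segment genes and 7.11% of all 19358 genes (Dp16 lay below in 6.96% and either way in 14.1%). The same 3 had an interval above 0, as did 77.2% of segment genes. In the test over all genes, 0.625% of genes were called at an edgeR adjusted p below 0.05 (0.47% higher and 0.155% lower), 29.1% of segment genes were called higher, and 0 of the 6 members were called. Cldn8 was called higher by DESeq2 and limma-voom, and by edgeR with no expression filter, with the filter of 1 CPM, with the replicate block, and without Dp16 replicate 2 or 3. Igsf5 was called higher by DESeq2 and with the replicate block, and Dscam by DESeq2. Against a fold of 1.5, 11% of segment genes were called and 7.87% were called below it, among them Cxadr and Jam2. Intervals ended below 1.5-fold in 15% of segment genes, again with Cxadr and Jam2. Without Dp16 replicates 1, 2 or 3 neither was called below 1.5-fold, and Cxadr was not without WT replicates 1, 2 or 4 or Dp16 replicate 4 either, nor with the replicate block, which called Jam2 only. Since the same contrast chose the members, nothing is read from these counts.

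**Figure D3:**
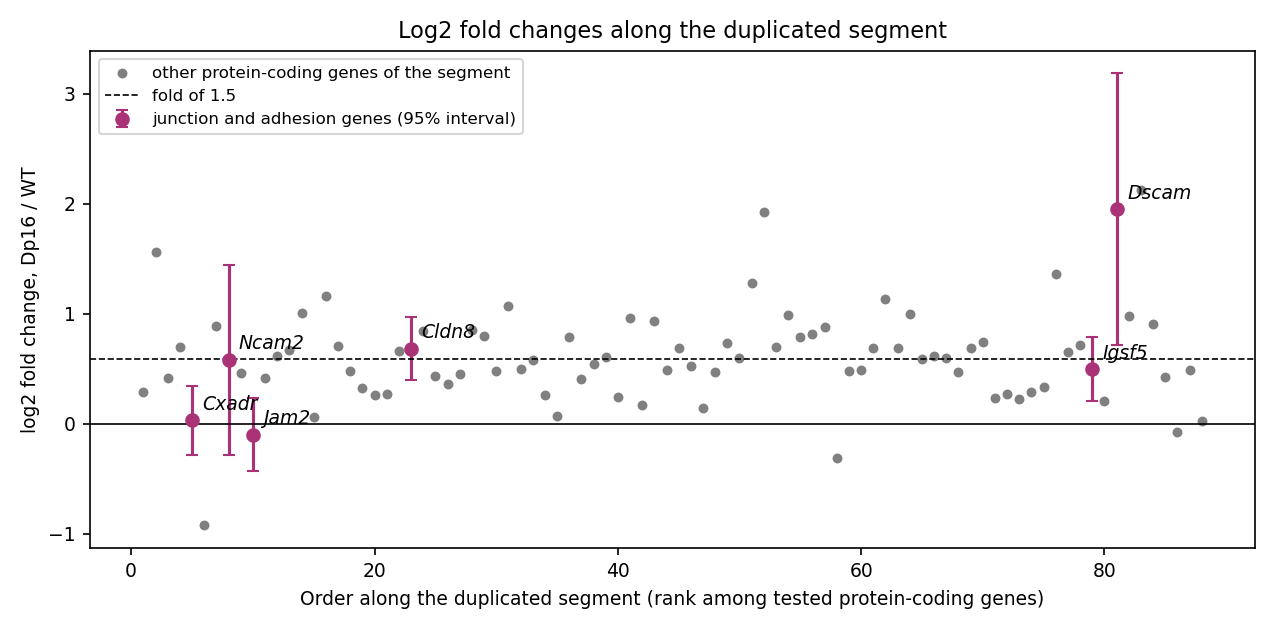
Log2 fold change of Dp16 over WT for the 88 tested protein-coding genes of the duplicated segment, in their order along it, with the 6 detected junction and adhesion genes in colour with 95% intervals, a solid line at 0 and a dashed line at a fold of 1.5. Cxadr (0.03) and Jam2 (-0.10) lie near 0 among neighbours that mostly lie above it.

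The nearest tested genes of the segment, which share the copy number, were set beside each member. Jam2 lies between Mrpl39, of the mitochondrial ribosome and 38.4 kb away, and Atp5j, of the mitochondrial ATP synthase and 1.94 kb away. Mrpl39 had 16.0 ± 1.41 CPM in WT against 22.0 ± 2.32 in Dp16 (log2 fold change 0.46, SE 0.100, edgeR adjusted p = 0.0677), with no overlap of the genotypes. Atp5j had 107.4 ± 8.27 and 143.0 ± 29.4 CPM (0.41, SE 0.143, edgeR adjusted p = 0.134). The log2 fold changes of both neighbours lay above the interval of Jam2, which ended at 0.229. Their own 95% intervals were 0.232 to 0.682 for Mrpl39 and 0.093 to 0.736 for Atp5j. The interval of Atp5j thus overlapped that of Jam2, and the genotypes overlapped for Atp5j. The difference between Jam2 and its neighbours was not tested. On the 2 sides of Cxadr, Gm37694 rose (0.82, SE 0.133, edgeR adjusted p = 0.0412), and the overlapping Btg3, a regulator of proliferation, had -0.92 (SE 0.312, edgeR adjusted p = 0.130).

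Beside Cldn8, Bach1, a repressor of antioxidant genes 827 kb away, rose by 0.66 on the log2 scale (SE 0.104, edgeR adjusted p = 0.0388), and Tiam1, an activator of Rac that acts at junctions, had 0.84 (SE 0.236, edgeR adjusted p = 0.0952). Beside Igsf5, B3galt5, a galactosyltransferase 41.8 kb away, rose from 54.5 ± 5.30 CPM in WT to 89.6 ± 8.99 (0.72, SE 0.098, edgeR adjusted p = 0.0267), and AC154258.1 had 0.43 (SE 0.167, edgeR adjusted p = 0.163). Beside Dscam, Bace2, a protease of the beta-secretase family, rose from 7.02 ± 0.786 CPM in WT to 13.8 ± 2.08 (0.98, SE 0.129, edgeR adjusted p = 0.0265), and Pcp4, a calmodulin-binding peptide, had 0.21 (SE 0.293, edgeR adjusted p = 0.681). Ncam2 lies alone in a stretch with few expressed genes, and D16Ertd472e (0.89, SE 0.169, edgeR adjusted p = 0.0538) and Mir155hg (2.07, SE 0.603, edgeR adjusted p = 0.102) are its nearest tested genes, 2624 kb and 3076 kb away. The calls of Gm37694, Bach1, B3galt5 and Bace2 were each lost without WT replicate 2, 3 or 4 or Dp16 replicate 1 (edgeR adjusted p between 0.0836 and 0.125). Those of Gm37694 (0.0502) and Bach1 (0.0568) were also lost without WT replicate 1, those of Gm37694 (0.0676), Bach1 (0.0547) and B3galt5 (0.0502) without Dp16 replicate 4, and that of Gm37694 (0.0594) without Dp16 replicate 3.

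Likeness of pattern was measured as the root mean square difference of centred log2 CPM over the 8 libraries, among 11886 protein-coding genes with a mean of at least 1 CPM. The genes most like Cldn8 were Heph, a copper-dependent iron oxidase (0.102), Acsm1 (0.119) and Magi2, a PDZ scaffold of junctions (0.127). Heph had 1.81 ± 0.120 CPM in WT and 3.05 ± 0.312 in Dp16, and Magi2 1.33 ± 0.136 and 1.87 ± 0.354 CPM. Igsf5 was closest to Atp5j (0.086) and Il10rb (0.096), both triplicated, and to B4galt4 (0.103), which is not. Il10rb, a cytokine receptor chain, had 26.2 ± 2.80 and 34.7 ± 5.12 CPM. Cxadr was closest to Irak4 (0.097), B3gntl1 (0.099) and Ifnlr1 (0.099), and Jam2 to Smoc2 (0.078), Mapk8ip1 (0.079) and Smim22 (0.082), of which none is in the segment. Smoc2, a matrix-associated protein, had 31.2 ± 6.73 CPM in WT and 28.6 ± 3.23 in Dp16. The low genes had no close match, the nearest being Zfp286 (0.212), Adcy4 (0.258) and Eid2b (0.262) for Ncam2, and Zfp941 (0.461), Ccr1 (0.483) and Prkcq (0.494) for Dscam.

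Junction and adhesion genes outside the segment, present in 2 copies in both genotypes, were compared through 6 lists. Together they hold 119 genes in the files, of which 103 were tested. Of these, edgeR called 0 higher and 1 lower in Dp16, 53 had a log2 fold change above 0, and the median was 0.003. An unadjusted p below 0.05 was found for 31 of the 103 (30.1%), against 24.6% of all genes tested, and 19 (18.4%) had genotypes that did not overlap, against 14.1%. The gene called was Ybx3, which encodes ZONAB, a transcription factor bound by ZO-1 at the junction. Its level was 44.9, 48.1, 43.7 and 42.2 CPM in WT replicates 1 to 4 and 33.1, 36.3, 32.5 and 33.5 CPM in Dp16 replicates 1 to 4. Ybx3 fell from 44.7 ± 2.53 to 33.9 ± 1.68 CPM (SD, n = 4), a log2 fold change of -0.40 (SE 0.068, edgeR adjusted p = 0.0428), and was lower in all Dp16 libraries than in any WT library. DESeq2 and limma-voom also called Ybx3 lower. With a library left out, Ybx3 kept its edgeR call only without Dp16 replicate 2 (edgeR adjusted p = 0.0324). The edgeR adjusted p was 0.0625, 0.134, 0.119 and 0.0880 when WT replicates 1 to 4 were left out in turn, and 0.138, 0.0933 and 0.0676 for Dp16 replicates 1, 3 and 4. DESeq2 called 11 of the 2-copy genes (7 higher and 4 lower) and limma-voom 2, both lower. These were 10.6% and 1.94% of the 2-copy genes with an adjusted p, near the 10.3% and 2.05% that the 2 tools called over all genes.

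**Figure D4:**
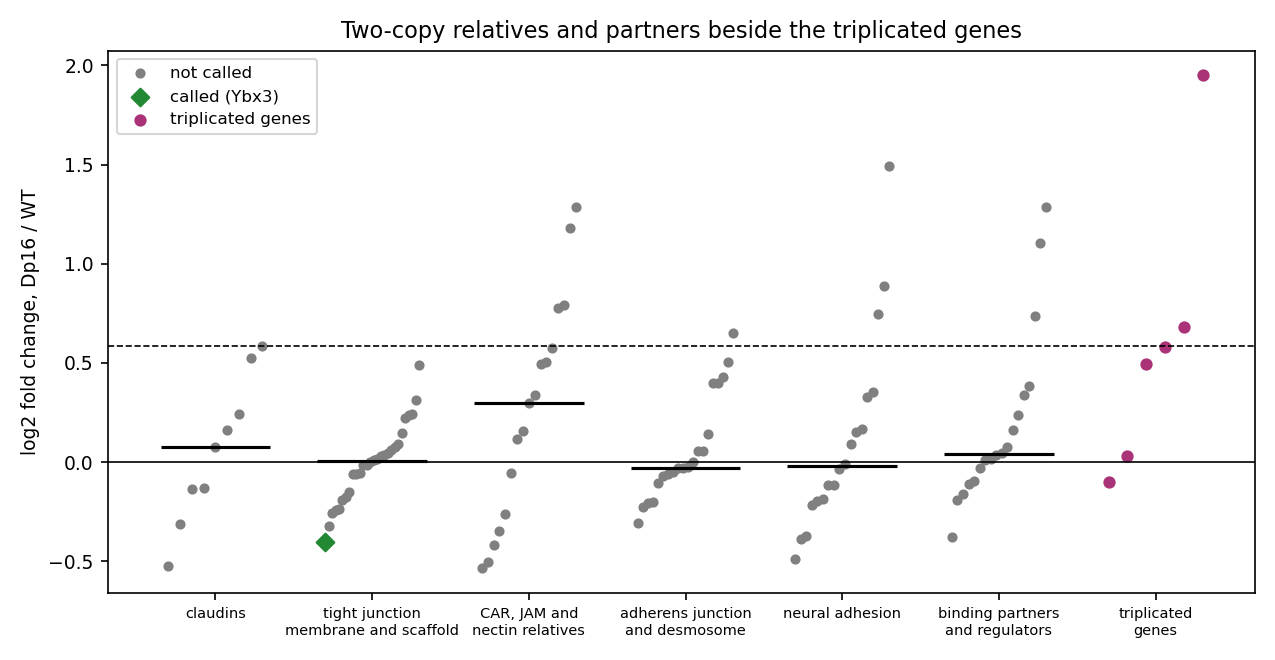
Log2 fold change of Dp16 over WT for each tested gene of the 6 lists of 2-copy junction and adhesion genes, with a bar at each list's median, and for the 6 triplicated genes tested at the right. The list medians lie between -0.03 and 0.30, the dashed line is a fold of 1.5, and Ybx3 (-0.40) is the 1 gene called.

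Of the 28 tight junction membrane proteins and scaffolds tested, which include Ybx3, 15 were positive, with a median of 0.01. Ocln (occludin) had 43.1 ± 5.85 CPM in WT and 43.2 ± 1.11 in Dp16 (log2 fold change 0.003, 95% interval -0.21 to 0.21), and Tjp1 (ZO-1) had 69.9 ± 3.96 and 71.7 ± 4.77 CPM (0.04, 95% interval -0.13 to 0.20); both were named after their values were seen. Cgn and Cgnl1, the cytoskeletal linkers cingulin and paracingulin, had 0.22 (SE 0.066, edgeR adjusted p = 0.104) and 0.24 (SE 0.087, edgeR adjusted p = 0.145). Among 2-copy claudins, 0 of 9 tested were called, 5 were positive and the median was 0.08. DESeq2 and limma-voom called 0 claudins as well, and by edgeR an unadjusted p below 0.05 was found for 2, against 24.6% of all genes tested. Cldn7 had 30.8 ± 6.57 CPM in WT against 21.5 ± 4.71 in Dp16 (-0.52, SE 0.184, edgeR adjusted p = 0.139), Cldn5, the claudin of endothelium, had 0.59 (SE 0.247, edgeR adjusted p = 0.186), and Cldn15, a claudin that forms cation pores, had 0.52 (SE 0.329, edgeR adjusted p = 0.345).

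Relatives of Cxadr and the junctional adhesion molecules had 0 of 17 tested genes called, 11 positive and a median of 0.30, the highest of the 6 lists. By edgeR 9 of the 17 had an unadjusted p below 0.05, DESeq2 called 4 higher and 2 lower, and limma-voom called Nectin1. Over all genes, 24.6% had such a p by edgeR, DESeq2 called 10.3% and limma-voom 2.05%. Nectin1, an adhesion receptor of adherens junctions, had 6.18 ± 0.220 CPM in WT against 4.27 ± 0.526 in Dp16 (-0.53, SE 0.114, edgeR adjusted p = 0.0660), with no overlap. Jaml, the receptor for Cxadr on leukocytes, had 1.42 ± 0.278 and 3.46 ± 1.66 CPM (1.28, SE 0.313, edgeR adjusted p = 0.0766), and Gpa33 had 1.18 (SE 0.296, edgeR adjusted p = 0.0796). Both were higher in all Dp16 libraries than in any WT library, and the summed lymphoid markers given above also did not overlap. Esam, an endothelial relative counted also among the endothelial markers, had 0.50 (SE 0.126, edgeR adjusted p = 0.0809).

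Known binding partners and regulators of the members had 0 of 18 tested genes called, 12 positive and a median of 0.04, with 5 at an unadjusted p below 0.05 by edgeR, and DESeq2 called Itga4 and Jaml higher and Pick1 lower. Over all genes, 24.6% had such a p by edgeR, DESeq2 called 10.3% and limma-voom 2.05%. The same shares stand beside the counts of the lists that follow. Itga4, a subunit of the integrin that binds Jam2 and a leukocyte adhesion receptor, had 10.1, 11.4, 10.3 and 8.29 CPM in WT replicates 1 to 4 and 25.5, 12.4, 31.6 and 16.6 CPM in Dp16 replicates 1 to 4 (1.10, SE 0.262, edgeR adjusted p = 0.0733). Pick1, a PDZ protein that binds the tails of Cxadr and of the junctional adhesion molecules, had -0.38 (SE 0.118, edgeR adjusted p = 0.113), and Jaml, also on this list, is given above. Adherens junction and desmosome genes had 0 of 20 called, 9 positive and a median of -0.03, and 4 had an unadjusted p below 0.05 by edgeR, while DESeq2 and limma-voom called 0. Jup (plakoglobin) stood at -0.23 (SE 0.071, edgeR adjusted p = 0.112), the desmosomal cadherin Dsc2 at -0.30 (SE 0.107, edgeR adjusted p = 0.138) and the endothelial cadherin Cdh5 at 0.40 (SE 0.164, edgeR adjusted p = 0.180). Neural adhesion relatives of Ncam2 and Dscam had 0 of 18 called, 8 positive and a median of -0.02, with 4 at an unadjusted p below 0.05 by edgeR, and DESeq2 called Nfasc and Cntn1 higher. Cntn1 (1.49, SE 0.401, edgeR adjusted p = 0.0889) and Nfasc (0.89, SE 0.231, edgeR adjusted p = 0.0834), which act at nodes of Ranvier, stood at 0.156 ± 0.0691 and 0.392 ± 0.0649 CPM in WT. Sdk2, an adhesion molecule of retinal synapses, had -0.38 (SE 0.138, edgeR adjusted p = 0.144).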

How the data were processed

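Total RNA, depleted of ribosomal RNA in a stranded library kit per the labels' protocols, was sequenced in 4 WT and 4 Dp16 libraries. The deposited values are raw read counts per gene and library. Build GRCm38 and the tools STAR, HTSeq, FastQC and DESeq2 are listed in the submitters' processing notes, without versions. Whether counting used the strand is not stated there. The 5 summary rows that name no gene held 58.1% to 65.4% of a library's reads and were left out. Of 54838 gene identifiers, 54723 matched GENCODE M21.

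Counts were tested in R 4.3.3 with edgeR 4.0.16: default expression filter (19358 genes), TMM scaling, quasi-likelihood F-test of genotype with no covariate over all 8 libraries, and Benjamini-Hochberg adjustment over all genes, with calls at an adjusted p below 0.05. The same fit was tested against a fold of 1.5, adjusted over the 127 segment genes. SE and 95% intervals come from that fit. CPM are TMM-scaled, with a prior count of 2 for log2 CPM. CPM per kilobase divides by the union of annotated exons. The fit was tested on simulated data.

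The members, lists and tests were chosen with earlier results of these data known. Named genes were the members, the called genes and 3 smallest p of each list, the nearest tested gene of the segment on each side, and the 3 genes most like each member in pattern. The symbols of 2 genes on the tight junction list matched none in the files. Alternatives were no expression filter, or one of 1 CPM in 4 libraries; DESeq2 1.42.0 and limma-voom (limma 3.58.1); RLE scaling, or TMM computed after dropping the top 1% of genes by level; the replicate number as a block; and each library left out. No 2 libraries agreed within sampling noise (lowest chi-square within genotypes 85.7 per degree of freedom).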

Additional observations from a re-analysis of the deposited data

Results flagged for a closer look

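In 6 of 104 groups of 4 libraries, 1 library stood apart from the others (the gap to its neighbour as a share of the range was above Dixon's 95% critical value), where chance flags about 1 group in 20; none was a value of the 7 triplicated genes. Among triplicated neighbours, Bach1 had 42.6 CPM in Dp16 replicate 3 against 31.7 to 32.95 in the other Dp16 libraries, B3galt5 103.1 CPM in Dp16 replicate 1 against 84.6 to 85.5, and AC154258.1 3.33 CPM in Dp16 replicate 2 against 4.15 to 4.31. Smim22, close to Jam2 in pattern, had 13.9 CPM in WT replicate 3 against 9.21 to 9.72. Nectin1 had 3.48 CPM in Dp16 replicate 3 against 4.50 to 4.56, and Sdk2 4.11 CPM in Dp16 replicate 4 against 3.25 to 3.36.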

How the results depend on the processing

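The 121 genes called became 1996 by DESeq2 (57.4% higher in Dp16, against 75.2%), 396 by limma-voom (62.4%), 223 with no expression filter (70.9%) and 776 with the replicate number as a block (46.4%), and 0 to 446 with a library left out. The 2-copy junction genes called became 11 by DESeq2, 2 by limma-voom and 5 with the replicate block, from 1, and 0 to 3 with a library left out (19 to 35 at an unadjusted p below 0.05). The 14 segment genes called against a fold of 1.5 became 9 with no expression filter and 1 to 15 with a library left out. The 0 arose without WT replicate 2 or Dp16 replicate 1, where edgeR gave 3376 and 3583 genes at an unadjusted p below 0.05; other tools were not run there. Same-numbered libraries deviated together with correlations of 0.19, 0.13, 0.08 and 0.10. Libraries of different number were not compared, so these values cannot settle whether the numbers pair the libraries. The labels do not say that they do, and the main fit left the number out. Over 7 alternatives the log2 fold change was 0.02 to 0.06 for Cxadr, -0.11 to -0.05 for Jam2, 0.48 to 0.53 for Igsf5 and 0.67 to 0.71 for Cldn8, and over the 6 that kept the low genes it was 0.52 to 0.69 for Ncam2 and 1.95 to 2.13 for Dscam. With a library left out the ranges were -0.09 to 0.09, -0.19 to 0.05, 0.40 to 0.59, 0.55 to 0.77, 0.26 to 0.75 and 1.65 to 2.70, in the same order. The 6 tested triplicated genes, not called by edgeR, gained 8 calls under the alternatives (Cldn8 5, Igsf5 2, Dscam 1) and 2 with a library left out (both Cldn8). Of 317 values of the other 46 named genes under the alternatives, 0 changed sign with a call, 1 lost its call and 25 gained one; with a library left out, 49 of 368 lost a call and 2 gained one. The filter of 1 CPM gave Ncam2 and Dscam no value. Scalings moved the median of all genes by at most 0.004 on the log2 scale. The causes were not tested. Depth limits Ncam2, Dscam and Cldn14.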
